A study of Mus musculus with 5 samples.

Results

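Chromosome 19 of mouse 3T9 fibroblasts carried 1843 of the 52181 accessible sites mapped by DNase-seq in this study, and 49506 of the others lay on the other autosomes. The members were chosen by the authors' peak calls. Peaks of the 3 distinct deposited lists were joined wherever they overlapped by at least 1 bp, and every joined site on chromosome 19 (build mm9) was kept. The weakest peaks that still entered had scores of 80.55, 80.01 and 80.02 in the 3 lists, and signal under a called peak was not used here.

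DNase I cuts DNA where nucleosomes leave it exposed, so short fragments from digested nuclei mark promoters, enhancers and other regulatory elements. Chromosome 19 is the smallest mouse autosome and is rich in genes. Its numbering starts at the centromere, as in other mouse chromosomes. Well-known genes lie on it, among them Malat1 and Neat1 (abundant nuclear noncoding RNAs), Fosl1 (a member of the AP-1 transcription factors), Rela and Nfkb2 (NF-kappaB subunits) and Scd2 (a fatty acid desaturase). The gene table at hand is on GRCm38 and the peaks are on mm9, so sites were not assigned to genes and no sequence is shown.

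The cells were fibroblasts from embryos of day 13.5 (strain given as mixed), with the genotype c-mycflox/flox, infected in vitro with MycER, a fusion of Myc to an estrogen receptor domain that 4-hydroxytamoxifen (4-OHT) switches on. All groups share this genotype and the fusion. The 5 samples were 2 libraries labelled 0 h of 4-OHT and treated with ethanol, 2 libraries of 4 h with 400 nM 4-OHT, and 1 input of sonicated DNA that was not analysed here. The promoter that drives MycER, and whether the replicates came from separate cultures, are not given in the labels.

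Of the 4 deposited lists, the first replicate of 4 h 4-OHT and the second of 0 h EtOH had identical contents on chromosome 19, with 1540 of 1540 peaks equal in interval and score. Their list is called the ambiguous list. EtOH 0 h replicate 1 is the vehicle list and 4-OHT 4 h replicate 2 the 4-OHT list. Treatment and replicate letter cannot be told apart between them. Where 3 values stand together without names, they are for the vehicle, ambiguous and 4-OHT list in that order. Each treatment is left with 1 list of undisputed label, so no difference between treatments has a replicate check. No p-value is given. The lists had 1231, 1540 and 1683 peaks on chromosome 19. These were 3.57%, 3.48% and 3.59% of each list's autosomal peaks, so its share was similar in each. They covered 1.97 Mb, 2.58 Mb and 2.63 Mb. The score is taken to be the peak caller's own value, although the lists do not name it. Such a value grows with the strength of a peak and with the depth of the library, which is unknown. Median peak scores on chromosome 19 were 328, 352 and 291, beside 329, 360 and 320 on the other autosomes.

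Accessible sites lay densely on chromosome 19. From the first site, which starts at 3281311, to the end of the last at 61342262, there were 31.7 sites per Mb, the second highest density of the 19 autosomes (range of the others 15.1 to 35.5). Sites covered 5.38% of that span, also rank 2. The median distance between neighbouring sites was 8.36 kb, against 8.40 kb to 19.3 kb on the other autosomes. The longest stretch with no site was 1886 kb, from 50754001 to 52639683, and every other autosome had a longer one (at least 2534 kb). Set against genes rather than length, the chromosome was in the middle of the order. It had 2.61 sites for each of the 705 protein-coding genes that RefSeq lists for it on GRCm38, rank 9 of the autosomes.

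The sites were spread unevenly. In the 59 windows of 1 Mb from the first to the last site, the median was 24 sites per window (14 in 2359 windows of the other autosomes). The 12 windows with 60 or more sites, 20.3% of the windows, held 983 sites or 53.3% of all on the chromosome. On the other autosomes 6.91% of windows reached 60 sites. The window from 5 to 6 Mb was the fullest with 118 sites, of which 81, 107 and 98 had a peak in each list. It was followed by 47 to 48 Mb with 108 sites and 46 to 47 Mb with 89. At the other end, the windows from 13 to 14, 49 to 50 and 51 to 52 Mb had no site in any list, and 5.08% of windows were empty in all (15.0% on the other autosomes). The order of windows was nearly the same in each list. Spearman's rho over the 59 windows was 0.984 for vehicle against ambiguous counts, 0.989 for vehicle against 4-OHT and 0.992 for ambiguous against 4-OHT. The windows share their length and their place on the chromosome, so these are descriptions.

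**Figure D1:**
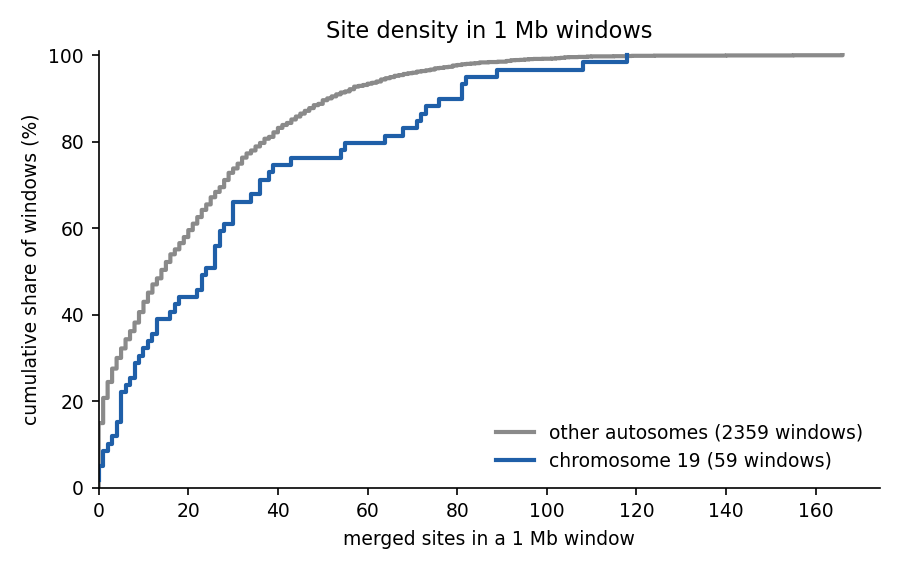
Cumulative share of 1 Mb windows (vertical axis, percent) by the number of merged sites in them (horizontal axis), for 59 windows of chromosome 19 and 2359 windows of the other autosomes. The line of chromosome 19 runs to the right of the other, with a median of 24 sites against 14 and a highest value of 118 against 166.

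Dense windows differed in the scores of their sites and in the share with a peak in every list, which itself rises with the score. The window from 5 to 6 Mb had a median vehicle score of 1347 and a median 4-OHT score of 1230, and 65.3% of its sites had a peak in every list. The window from 10 to 11 Mb had 81 sites, of which 62 (76.5%) were in every list. Its median scores were 335 in the vehicle list and 346 in the 4-OHT list. Its share in every list was thus higher than that from 5 to 6 Mb, at lower scores. The window from 45 to 46 Mb also had 81 sites, but 36, 60 and 65 of them had a peak in the respective list, and 39.5% had one in all. Its median scores were 260 in the vehicle list and 149 in the 4-OHT list. In the window from 56 to 57 Mb, with 73 sites, 43.8% were in every list, with median scores of 166 and 159 in the same order.

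Over the whole chromosome, 1075 sites or 58.3% (Wilson 95% interval 56.1% to 60.6%) had a peak in all 3 lists, against 60.9% over the 19 autosomes together. This share ranked 18 of the autosomes, whose others ranged from 57.6% to 64.0%. The shared sites had median scores of 416, 823 and 708 (388, 755 and 675 on the other autosomes). A site strong in 1 list was strong in the others. Spearman's rho of the scores over the 1075 sites was 0.939 for vehicle and ambiguous, 0.942 for vehicle and 4-OHT and 0.953 for ambiguous and 4-OHT, close to the values elsewhere (0.935, 0.936 and 0.944). At the 878 shared sites below a score of 3100 in both lists, the 4-OHT score was a median 1.62 times the vehicle score. The other autosomes ranged from 1.54 to 1.70, so chromosome 19 did not stand apart in this ratio, which can also carry the depth of the libraries. Of the other sites, 266 were in the 4-OHT list alone, 14.4% of all sites against 12.3% on the other autosomes. In the 4-OHT and ambiguous lists there were 247 (13.4% against 14.2%), and in the ambiguous list alone 153 (8.30% against 8.57%). There were 38 in the vehicle and 4-OHT lists (2.06% against 1.49%) and 38 in the vehicle list alone (2.06% against 1.29%). The last 26 were in the vehicle and ambiguous lists (1.41% against 1.18%).

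The strongest sites reached the score at which values pile up, 3100, in all 3 lists. There were 106 of them, 5.75% of the sites (4.78% to 6.91%), against 5.20% on the other autosomes. The window from 5 to 6 Mb held 13 of these among its 118 sites. The windows from 46 to 47 and 53 to 54 Mb held 8 each, among 89 and 82 sites. Some windows with fewer sites had a higher share, such as 60 to 61 Mb (4 of 23) and 12 to 13 Mb (3 of 18). As the scores tie, the widest are named first. The first lies at 5838105 to 5850949 (12845 bp) and was a single peak in each list, of 12687 bp, 12845 bp and 12790 bp. The next, at 47385055 to 47396507 (11453 bp), was unbroken in the 4-OHT list, while vehicle and ambiguous peaks, 2 each, covered 8654 bp and 10122 bp of it. The third, at 4210714 to 4218635, had 2 vehicle peaks of 5340 bp together, 1 ambiguous peak of 7278 bp and 1 4-OHT peak of 7901 bp. The others were at 12079602 to 12087472 and 46400796 to 46407805. Sites at this score could also be narrow. The narrowest, at 25035503 to 25036823, had peaks of 1321 bp, 1192 bp and 1001 bp, and no other site lay within 18651 bp.

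Broad sites were frequent on chromosome 19. Of its sites, 89 were 4 kb or wider, 4.83% (3.94% to 5.91%), the highest share of the 19 autosomes. The others ranged from 0.576% to 3.43% with a median of 1.49%. The 4 kb limit is arbitrary, and the chromosome ranked first with limits of 3, 5 and 6 kb as well and second, with 25.2% of its sites, at 2 kb. The lead was smaller at 3 kb (9.71% against at most 8.84% on another autosome) and 5 kb (2.12% against 1.80%). At 6 kb it was close to a tie, with 0.922% (17 sites) against 0.920%. Peaks of single lists, before any joining, showed the same. Those of 4 kb or more were 30 of 1231 vehicle peaks (2.44%), 62 of 1540 ambiguous peaks (4.03%) and 46 of 1683 4-OHT peaks (2.73%), rank 1 each time. On another autosome the share reached at most 1.80%, 2.85% and 2.57%. Of the 89 broad sites, 85 had a peak in every list and 28 were at a score of 3100 in all lists. On the other autosomes 788 of 792 broad sites had a peak in every list, and 356 were at 3100 in all. Both shares were thus lower on chromosome 19, a difference that was not tested.

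Broad sites clustered. The windows from 45 to 48 Mb held 33 of the 89 and the window from 5 to 6 Mb held 13, while the stretch from 20 to 40 Mb held 3 among its 342 sites. These windows were also dense in sites of any width. Broad sites were 8 of 81 from 45 to 46 Mb, 13 of 89 from 46 to 47 Mb and 12 of 108 from 47 to 48 Mb. From 5 to 6 Mb they were 13 of 118. All windows outside 5 to 6 and 45 to 48 Mb held 43 broad sites among 1447 (2.97%). The next widest sites after those at 5838105 and 47385055 lay close together. The site at 46555271 to 46565776 (10506 bp) had 3 vehicle peaks with a highest score of 779, 2 ambiguous peaks (1787) and 1 4-OHT peak (1154). The site at 46521622 to 46531804 (10183 bp) had 2 vehicle peaks (1191), 1 ambiguous peak (964) and 3 4-OHT peaks (2321). No list gave the most peaks or the highest score at both. The 4 broad sites that were not in every list were chosen for naming after their values had been seen. Those at 10129043 to 10133155, 45614231 to 45618483 and 47360116 to 47364857 had no vehicle peak, and each lay within 868 bp of a shared site. Their ambiguous scores were 410, 341 and 316 and their 4-OHT scores 636, 490 and 209. The one at 53520455 to 53524524 had a vehicle score of 117, an ambiguous score of 153 and no 4-OHT peak.

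Peaks of chromosome 19 were also wider than those of the other autosomes at the same score. Over 7 classes of score in 3 lists, 21 in all, the median width on chromosome 19 was above the median of the other autosomes in 21 of 21. It ranked 2 among the autosomes in 18 classes and 3 in 2 classes, and 5 in the class from 1000 to 2000 of the 4-OHT list. Chromosome 15 was wider in each. Among the weakest peaks, with scores of 80 to 100, the median width of 145 vehicle peaks was 917 bp, and autosomes other than 15 reached at most 840 bp. It was 857 bp over 138 ambiguous peaks (elsewhere at most 783 bp) and 875 bp over 211 4-OHT peaks (at most 751 bp). At scores of 3100 or more the medians were 2338 bp, 2357 bp and 2462 bp over 106, 252 and 198 peaks. There the order was less clear, since an autosome other than 15 reached 2396 bp among vehicle peaks. With each peak divided by the median width of the other autosomes in its score bin (20 bins), the median ratio was 1.12, 1.12 and 1.13. Chromosome 15 had 1.16, 1.18 and 1.19, and no other autosome passed 1.04 in any list.

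**Figure D2:**
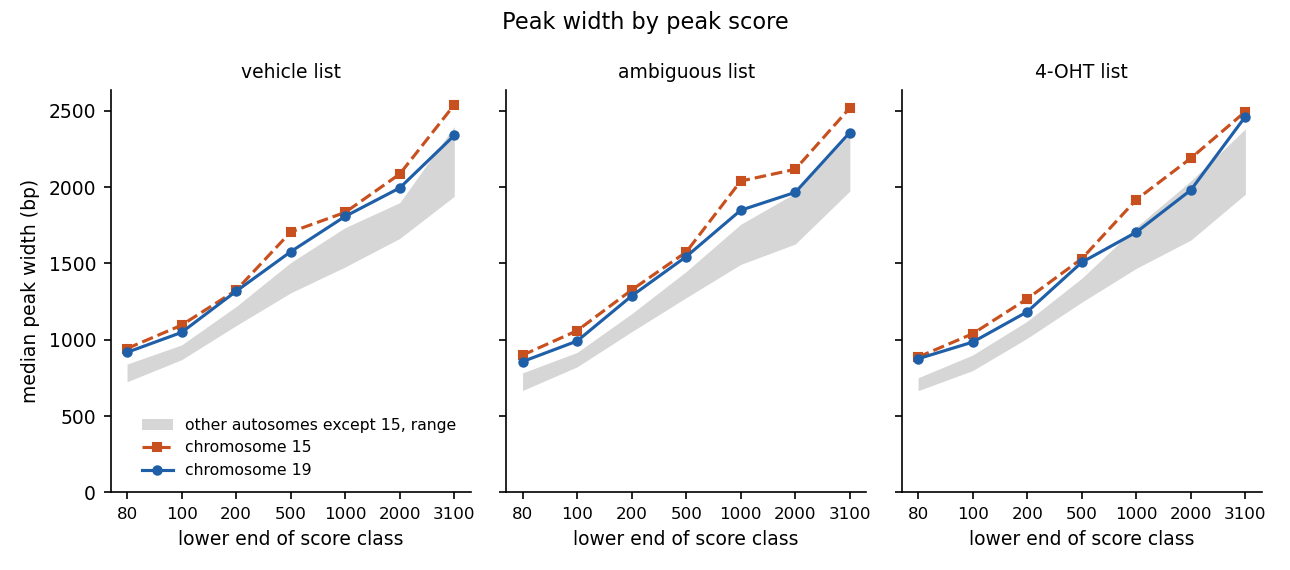
Median peak width in bp (vertical axis) by class of peak score (horizontal axis, lower end of each class) in each distinct list. Circles are chromosome 19, squares chromosome 15, and the grey band spans the other 17 autosomes. Chromosome 19 lies above the band in the classes below 1000 of every list, for example 917 bp against at most 840 bp for vehicle peaks with scores of 80 to 100, and below chromosome 15.

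The greater width was found mainly in the far part of the chromosome. In 10 Mb windows the width ratio of the 4-OHT list was 1.07 up to 10 Mb, 1.03 from 10 to 20 Mb, 0.989 from 20 to 30 Mb and 1.00 from 30 to 40 Mb. It was 1.25 from 40 to 50 Mb and 1.32 from 50 to 60 Mb. The vehicle list gave 1.22 and 1.29 in the last pair and the ambiguous list 1.26 and 1.29, so the pattern was the same under either label. Among 212 to 224 autosomal windows of 10 Mb with at least 50 peaks, 8 in the vehicle list and 9 in each of the other lists had a ratio of 1.2 or more. Of these, 2 were the windows of chromosome 19 just named in each list and the others were on chromosome 15. The highest ratio on any other autosome was 1.108, 1.104 and 1.096.

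In 1 Mb windows with at least 10 peaks in each list, the change fell at 42 Mb, a boundary chosen after these values had been seen. From 41 to 42 Mb the ratio was 0.898, 0.942 and 0.969, over 21, 30 and 33 peaks. From 42 to 43 Mb it was 1.17, 1.19 and 1.19, over 49, 55 and 63 peaks. The ratio was at least 1.1 in 12 of the 13 windows from 42 Mb on in every list, and in 4, 3 and 3 of the 24 windows before it. The window from 60 to 61 Mb was the exception, with 1.04, 1.01 and 1.04 over 16 to 22 peaks. It was highest from 57 to 58 Mb, with 1.45, 1.60 and 1.57. The window from 46 to 47 Mb had 1.41, 1.52 and 1.56.

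**Figure D3:**
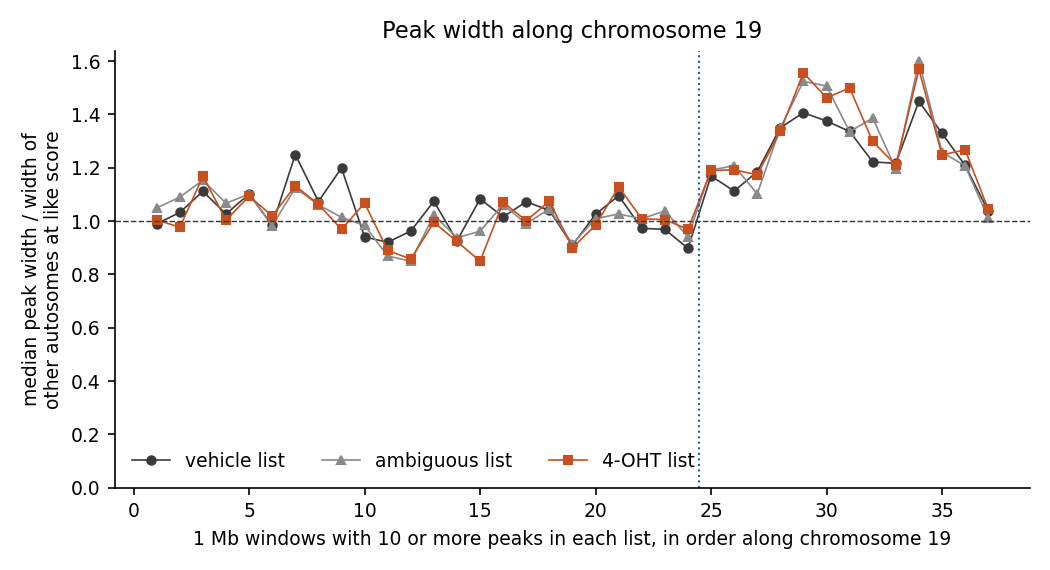
Median peak width relative to peaks of like score on the other autosomes (vertical axis, 1 meaning equal) in 37 windows of 1 Mb, in order along chromosome 19 (horizontal axis). Symbols and lines are the 3 distinct lists and the dotted line marks 42 Mb. The lists follow each other, between 0.849 and 1.25 before the line and between 1.01 and 1.60 after it.

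The parts of the chromosome on each side of 42 Mb also differed in score and in the share of sites in all lists. The far part had 862 sites and the near part 981. Sites of the far part were weaker, with median scores of 263, 288 and 223, against 416, 457 and 395 in the near part. Fewer of them were in all lists, 52.3% (49.0% to 55.6%) against 63.6% (60.6% to 66.6%), a share not compared at like score. Of the 4-OHT sites, 37.2% in the far part and 26.7% in the near part had no vehicle peak. With their scores taken into account, these were 0.978 and 0.953 times the expected numbers. Vehicle sites with no peak in another list are compared with the expected numbers below. Sites of 4 kb or more were 6.73% against 3.16%, a difference that the choice of the boundary on peak widths favours. The ratio of 4-OHT to vehicle score was taken at shared sites below 3100 in both lists, 380 in the far part and 498 in the near part. Its median was 1.62 in the far part and 1.63 in the near part. For these sites the relation of the lists was thus alike on both sides.

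Vehicle sites with no peak in another list bear on the question whether accessibility was lost after activation of MycER, although absence from a list means only that no peak was called. Of the 1177 vehicle sites of chromosome 19, 64 had no peak in the 4-OHT list, 5.44% (4.28% to 6.88%) against 3.86% over the 19 autosomes. No peak in the ambiguous list was found for 76 of them, 6.46% (5.19% to 8.01%) against 4.36%, and 38 were in neither, 3.23% (2.36% to 4.40%) against 2.03%. The share depends on the score, so the number expected was computed from the rates of the other autosomes in 20 bins of vehicle score. This gave 49.5, 55.5 and 26.0 sites, and the observed counts were 1.29, 1.37 and 1.46 times these. The expected shares of 4.20%, 4.71% and 2.21% lay below the intervals of the observed ones, which cover counting error over sites alone although neighbouring sites are not independent. Against the 4-OHT list this margin was narrow. Without the window from 47 to 48 Mb, 58 of 1113 sites were missing, 5.21% (4.05% to 6.68%), where 4.19% was expected. Among the 1043 vehicle sites scoring 100 or more, 24 had no 4-OHT peak of any score, 2.30% (1.55% to 3.40%), where 1.88% was expected. In both the expected share lay inside the interval.

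Chromosome 19 ranked 2 among the 19 autosomes in each of these ratios. Chromosome 15 was first with 1.58, 1.49 and 1.97, and the medians of the other autosomes were 0.938, 1.00 and 0.899. Chromosomes 15 and 19 were also the pair with the widest peaks at like score. When the expected number also took account of whether a merged site was wider than the median, the ratios on chromosome 19 were 1.41, 1.52 and 1.66. The merged width includes the peaks of the other lists, so the width class depends in part on whether a site is missing. Median merged widths were 881 bp for sites of the vehicle list alone and 1762 bp for sites in all lists. These ratios therefore cannot show the part of peak width in the missing sites, which was not tested. The 3 comparisons share the vehicle list and are not independent of each other.

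**Figure D4:**
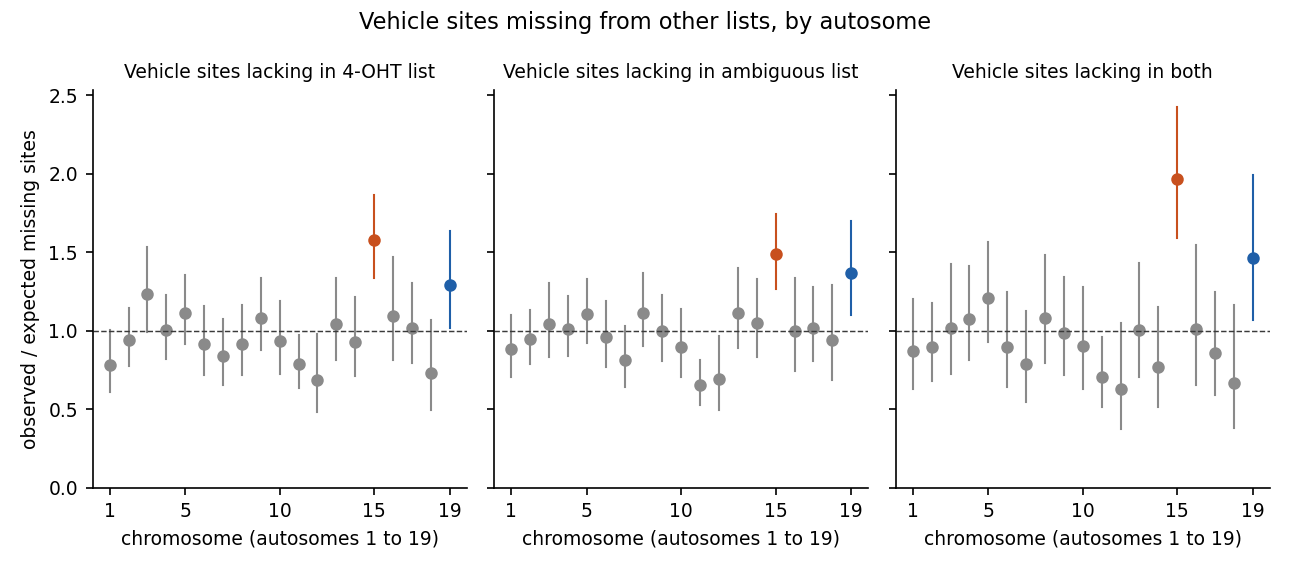
Observed over expected number of vehicle sites that lacked a 4-OHT peak, an ambiguous peak or both (vertical axis) for each autosome (horizontal axis). Bars are Wilson 95% intervals of the observed share divided by the expected share, and the dashed line is 1. Chromosome 19 (blue, last point) is at 1.29, 1.37 and 1.46, second to chromosome 15 (orange) in each panel.

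The missing vehicle sites were weak, as on the other autosomes. With scores of 80 to 100, 40 of 134 vehicle sites of chromosome 19 had no 4-OHT peak, 29.9% (22.8% to 38.1%) against 22.2% (20.8% to 23.6%) on the other autosomes. From 100 to 200 these were 24 of 302, 7.95% (5.40% to 11.6%) against 6.04% (5.54% to 6.58%). From 200 to 500 there were 0 of 245, which allows a share of up to 1.22%, against 18 of 7486 (0.240%) on the other autosomes. At 500 or more there were 0 of 496, which allows up to 0.605%, and 0 of 13337 on the other autosomes. With so few sites missing anywhere, these 2 classes could not show whether chromosome 19 stood apart. Against the ambiguous list the shares were 30.6%, 10.6% and 1.22% in the first 3 classes, and 24.6%, 6.90% and 0.321% on the other autosomes. The third class rests on 3 of 245 sites (0.417% to 3.54%) against 24 of 7486 (0.216% to 0.477%), and these intervals overlap. In the class from 80 to 100 the intervals of chromosome 19 and the other autosomes overlap for each of these lists. In the class from 100 to 200 they overlap for the 4-OHT list, and for the ambiguous list that of chromosome 19 starts at 7.61% and that of the others ends at 7.47%. For sites in neither list, the weakest class had 28 of 134 missing, 20.9% (14.9% to 28.5%) against 13.4% (12.3% to 14.6%). From 100 to 200 these were 10 of 302, 3.31% (1.81% to 5.99%) against 2.50% (2.18% to 2.86%), and the intervals overlap.

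**Figure D5:**
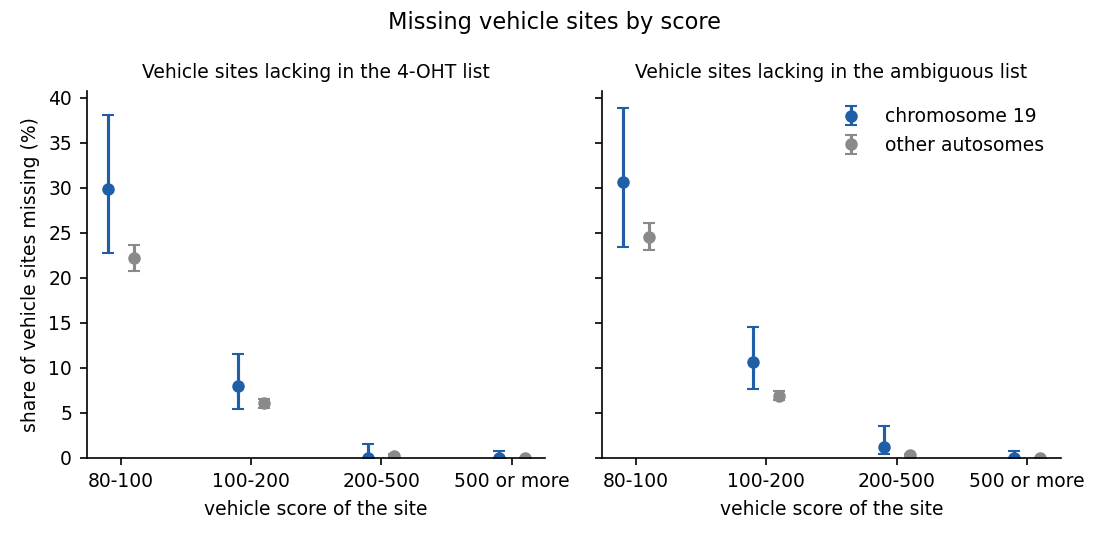
Share of vehicle sites that lacked a 4-OHT peak (left) or an ambiguous peak (right; vertical axis, percent) by vehicle score (horizontal axis), on chromosome 19 and on the other autosomes. Bars are Wilson 95% intervals. The share on chromosome 19 is 29.9% and 30.6% in the weakest class. At scores of 500 or more it is 0%, as on the other autosomes.

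Missing vehicle sites were not even along the chromosome. From 42 Mb on, 39 of 508 vehicle sites had no 4-OHT peak, 7.68% (5.67% to 10.3%), where 24.4 were expected (ratio 1.60). Before 42 Mb these were 25 of 669, 3.74% (2.54% to 5.46%), where 25.1 were expected (ratio 0.997). The excess against the 4-OHT list thus lay in the part with the wide peaks. With a score of at least 100 required in every list it was 1.30 in the near part and 1.86 in the far part. Against the ambiguous list the ratios were 1.47 in the far part (40 sites) and 1.28 in the near part (36 sites), and for sites in neither list 1.72 (22) and 1.21 (16). The order for the ambiguous list turned with that higher score, to 1.42 in the far part and 1.44 in the near part. In 10 Mb windows the ratio against the ambiguous list was highest from 30 to 40 Mb, at 1.83 (12 sites, 6.57 expected). Peaks of that window had width ratios of 1.01, 0.971 and 1.00. From 40 to 50 and 50 to 60 Mb the ratio against this list was 1.22 and 1.76. For sites in neither list the same windows, in order of position, gave 1.60, 1.39 and 2.28. The difference between the parts was not tested, and the boundary was set on the widths. By single windows, those from 47 to 48 Mb (6 of 64 vehicle sites) and 53 to 54 Mb (6 of 54) had most sites missing from the 4-OHT list, followed by 42 to 43 Mb (5 of 48) and 56 to 57 Mb (5 of 41). The window from 56 to 57 Mb had most missing from the ambiguous list, 8 sites. From 10 to 11 Mb, 0 of 62 vehicle sites were missing from either list. That window was not named by a rule set in advance, and counts of single windows were not compared at like score.

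The 38 sites of the vehicle list alone had a median width of 881 bp (748 bp for this class on the other autosomes) and a median score of 89.1, with 10 at 100 or more. They lay apart from shared sites, at a median of 18.9 kb, and 2 of them were within 2 kb of one (13.4 kb and 11.6% on the other autosomes). The strongest was at 45192860 to 45193943 with a score of 121. It was followed by 32329154 to 32330080 (score 118), 27334224 to 27335356 (116), 44835333 to 44836392 (116) and 53653205 to 53653836 (115). The other 5 of the first 10 began at 56419726, 5095663, 29575562, 54244699 and 44844330, with scores of 100 to 108. Of these 10 sites 6 lay beyond 42 Mb, as did 22 of the 38 and 508 of all 1177 vehicle sites.

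Vehicle and ambiguous peaks marked 26 sites that the 4-OHT list lacked, and the first 5 of these by their lower score were not much stronger. The site at 5061905 to 5063011 had a vehicle score of 135 and an ambiguous score of 142. The site at 12537260 to 12538674 scored 170 and 133 in the same order, and that at 53750641 to 53752249 scored 133 and 259. The others were at 47461473 to 47462967 (124 and 164) and at 32669683 to 32670931 (123 and 334), the latter with no other site within 108047 bp. Some vehicle sites were missing from the ambiguous list and present in the 4-OHT list with clear scores. The site at 52705863 to 52707692 had a vehicle score of 340 and a 4-OHT score of 320, and the site at 36894663 to 36895462 had 303 and 408. These were chosen for naming after their values had been seen.

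In the opposite direction chromosome 19 stayed near the expected number. Of its 1626 sites in the 4-OHT list, 513 had no vehicle peak, 31.5% (29.3% to 33.8%) against 29.8% over the 19 autosomes. With the scores of the 4-OHT list taken into account, 531 were expected, a ratio of 0.966 and rank 17 (range of the others 0.882 to 1.06). The ratio for ambiguous sites without a vehicle peak was 0.995. Between the ambiguous and 4-OHT lists it was 1.07 for 4-OHT sites with no ambiguous peak and 1.05 for the reverse, rank 3 and 4. The ratio of observed to expected number was thus higher for vehicle sites than for those of the other lists, a difference that was not tested. These ratios rest on unlike expected shares, 2.21% to 4.71% for vehicle sites and 11.4% to 32.7% for the others. Counted in sites, the excess was 14.5, 20.5 and 12.0 in the vehicle comparisons. It was 19.5 for 4-OHT sites with no ambiguous peak and 7.79 for the reverse.

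The strongest 4-OHT sites without a vehicle peak, ranked by the lower of their scores in the 4-OHT and ambiguous lists, began with the broad sites at 10129043 and 45614231 described above. They were followed by 7028183 to 7029588 (4-OHT score 343, ambiguous score 327), 6261691 to 6263050 (324 and 314) and 9140266 to 9141216 (291 and 319). Sites of the 4-OHT list alone reached 336, at 3838736 to 3840759. The next was at 5828091 to 5830846 with 253, in the window that holds the widest site. It was followed by 46106149 to 46107462 (251), 47738191 to 47739926 (228) and 30192720 to 30193883 (219). By label alone, a loss with 4-OHT means a peak in both EtOH lists and in neither 4-OHT list, and 0 sites of chromosome 19 can meet this because 1 list stands in both groups.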

How the data were processed

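The authors deposited 4 peak lists with a position and a score for each peak. Per the submitters' processing notes BWA 0.6.2, SAMtools, MACS 1.4.1 and mm9 were used, with settings not given in the sources used here. The deposited score has no header. Medians and ratios of scores are therefore descriptions of the lists, on a scale that no source used here defines. A stronger or deeper library passes weaker sites, so absence from a list was not read as closed chromatin.

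Peaks were merged at 1 bp of overlap (checked with bedtools 2.31.1, which gave the same 1843 sites), and a site's score in a list is its highest peak score there. Windows took sites by their midpoint. Expected numbers are the missing rates of the other autosomes in 20 score bins, and width ratios used the same bins. The merge and the expected numbers were tested on simulated data. Python 3.11.15, numpy 2.4.6, scipy 1.17.1 and matplotlib 3.10.9 were used. Starts count from 1. Wilson intervals and limits from 3 counts cover counting error over sites only.

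Named sites were the 5 strongest (ties by width), the 5 widest, and the 10 or 5 highest-scoring of each class of missing site. The members, lists and tests were chosen with earlier results of these data known. Widths at like score, the 42 Mb boundary and the class of vehicle and 4-OHT sites were added after seeing the data.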

Additional observations from a re-analysis of the deposited data

How the results depend on the processing

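The vehicle sites lacking elsewhere exceeded the expected number in 29 of 29 alternatives, with ratios of 1.196 to 1.57 against the 4-OHT list, 1.14 to 1.54 against the ambiguous list and 1.22 to 1.66 against both. The expected share lay below the Wilson interval of the observed one in 7 of 10, 9 of 10 and 8 of 9 alternatives. The lowest ratio in each came from lists of equal length (35149 peaks). For 4-OHT sites lacking in the vehicle list the ratio turned from 0.966 to 1.01 with score bins crossed with 2 width classes, and the cause was not tested. The width classes used merged sites, whose width depends in part on the lists that hold a peak. The highest ratio against both lists, 1.66, also came from this setting. Other alternatives were 10 bins, a score of at least 100 in every list or for presence only, merging within 500 bp, an overlap of 50% of the shorter peak, expected numbers without chromosome 15, leaving out the window with most missing sites, and, added after seeing the data, merging the compared lists only.

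Width ratios and the share of broad sites, with their alternatives, were chosen after seeing the data. The width ratio was above 1 in each setting run and moved by more than the SD over the lists without chromosome 15 (1.12 vehicle, 1.13 ambiguous, 1.14 4-OHT), with 10 bins (1.13 ambiguous), at equal length (1.11 ambiguous, 1.11 4-OHT) and at scores of at least 100 (1.12 4-OHT). The share of sites of 4 kb or more was 6.10% at equal length and 6.60% with merging within 500 bp.

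Lost sites by label were 0 with all lists and 0 with the replicate letter as a block, which the repeated list forces. Leaving out each library gave 0 to 38, reaching 38 when the second EtOH library was left out and 26 when the first 4-OHT library was. No paired analysis was possible because 1 of the lists stands in both letter pairs. Read depth is unknown, so how far it limits weak sites could not be given.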

Other observations

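Over the 19 autosomes, the width ratio of vehicle peaks and the ratio of observed to expected vehicle sites lacking in the 4-OHT list had a Pearson r of 0.758 and a Spearman rho of 0.419. Without chromosomes 15 and 19 the r was 0.370 over 17 autosomes, so the value depends on that pair. For the vehicle sites lacking in the ambiguous list the r was 0.692 and 0.160 in the same order. The autosomes share the same lists and each serves in the reference of the others, so these are descriptions.

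Sites of the vehicle and 4-OHT lists that the ambiguous list lacked lay closer to shared sites on chromosome 19 than elsewhere, at a median of 7.55 kb for 38 sites against 17.9 kb for 739 sites, and 31.6% against 10.6% lay within 2 kb. Sites in all lists also lay closer to another shared site on chromosome 19, at a median of 6.85 kb against 9.48 kb, with 21.4% against 17.3% within 2 kb. For sites of the vehicle list alone the order was the opposite, as given above. None of these differences was tested.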
